A study of Mus musculus with 6 samples.

Results

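The genes described here are 43 genes of the cell division cycle, 15 that act in S phase and 28 that act in G2 phase and mitosis. They were taken from a list by name, with no threshold on a measured value, although the list was drawn up with earlier results of these data known, and all 43 were among the 19449 genes of the single-cell count table. The mice had experimental autoimmune encephalomyelitis (EAE), a model of multiple sclerosis, which was set up by adoptive transfer: CD4+ T cells of CD45.1 congenic donors, primed against the myelin peptide MOG35-55 and polarized with IL-23, were injected into unmanipulated C57BL/6 recipients. Recipients were young (8 to 12 weeks) or middle-aged (40 to 44 weeks), and CD45+ leukocytes were sorted from perfused spinal cords on day 6 or day 10 after transfer, with 4 cords pooled into 1 library for each age and day. A separate bulk library for each age held microglia of naive, untreated mice. With 1 library per group there was no test between groups. Every interval below is an exact 95% interval that covers counting error only, and it says nothing of the spread between mice.

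A cell that divides first copies its DNA in S phase, when the replicative helicase opens the double strand, the sliding clamp holds the polymerases on it and a set of enzymes supplies nucleotides. It then passes through G2 phase into mitosis, where Cdk1 and its cyclins switch on the mitotic kinases, the spindle attaches to the kinetochores of condensed chromosomes, and the anaphase ubiquitin ligase releases the sister chromatids. In the inflamed spinal cord, microglia are known to divide in place, transferred T cells divide after meeting antigen, and mature neutrophils do not divide.

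Promoter sequences are shown because S phase genes and mitotic genes are known to be read from different promoter elements, which separates the 2 sets of members by a feature that the list did not use. RefSeq promoters (build GRCm38.p6, 250 bases before to 50 after each gene's start) matched 35 of the 43 members by symbol, 12 of S phase and 23 of G2 and mitosis. The cell cycle genes homology region was searched as TTTGAA or TTCGAA, the CCAAT box as CCAAT, and the E2F site as TTTCGCGC, TTTGGCGC, TTTCCCGC or TTCCCGCC, all on both strands, where E2F matches may overlap each other. The homology region letters were in 19 of 23 promoters of G2 and mitosis genes (82.6%) and in 2 of 12 promoters of S phase genes (16.7%), against 19.4% of all 27025 promoters. CCAAT was in 21 of 23 (91.3%) and 9 of 12 (75.0%), against 37.9% of all. The E2F letters were in 1 of 23 (4.35%) and 6 of 12, against 3.57% of all. Among the 15970 promoters with a GC share at or above the 10th percentile of the members, a set chosen after the data were seen, the shares were 11.7%, 35.7% and 5.47%. A match is only a description of the letters in the window.

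The first 4 sequences are the 250 bases upstream of mitotic genes, with homology region and CCAAT letters in capitals on either strand. Top2a (chr11:99024190-99024439, minus strand) held 4 homology region and 6 CCAAT matches, Ube2c (chr2:164769679-164769928, plus strand) 1 and 6, Cdc20 (chr4:118437344-118437593, minus strand) 1 and 2, and Mki67 (chr7:135716380-135716629, minus strand) 2 and 3. The last 2 are upstream of helicase genes, with E2F letters alone in capitals. Mcm5 (chr8:75109259-75109508, plus strand) held 2 overlapping matches and Mcm6 (chr1:128359706-128359955, minus strand) held 3.
Top2a: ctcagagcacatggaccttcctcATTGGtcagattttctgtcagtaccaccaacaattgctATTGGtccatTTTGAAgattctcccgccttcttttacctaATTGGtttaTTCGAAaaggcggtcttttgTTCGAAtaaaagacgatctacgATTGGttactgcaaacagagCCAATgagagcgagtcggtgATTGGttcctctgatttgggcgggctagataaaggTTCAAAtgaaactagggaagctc
Ube2c: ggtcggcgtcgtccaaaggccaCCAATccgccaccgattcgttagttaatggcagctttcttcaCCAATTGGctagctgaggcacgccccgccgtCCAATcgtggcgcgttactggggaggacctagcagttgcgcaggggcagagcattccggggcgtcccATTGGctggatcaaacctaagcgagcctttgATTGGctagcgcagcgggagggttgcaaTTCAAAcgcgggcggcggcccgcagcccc
Cdc20: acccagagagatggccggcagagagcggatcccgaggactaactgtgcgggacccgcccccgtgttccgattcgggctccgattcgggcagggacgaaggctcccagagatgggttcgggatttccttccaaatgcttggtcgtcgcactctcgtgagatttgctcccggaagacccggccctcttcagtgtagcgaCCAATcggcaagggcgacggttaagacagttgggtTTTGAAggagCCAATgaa
Mki67: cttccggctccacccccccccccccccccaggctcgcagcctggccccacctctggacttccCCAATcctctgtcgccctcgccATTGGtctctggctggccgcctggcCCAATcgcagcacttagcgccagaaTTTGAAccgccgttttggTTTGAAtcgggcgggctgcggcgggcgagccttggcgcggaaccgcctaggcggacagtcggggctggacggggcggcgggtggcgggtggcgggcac
Mcm5: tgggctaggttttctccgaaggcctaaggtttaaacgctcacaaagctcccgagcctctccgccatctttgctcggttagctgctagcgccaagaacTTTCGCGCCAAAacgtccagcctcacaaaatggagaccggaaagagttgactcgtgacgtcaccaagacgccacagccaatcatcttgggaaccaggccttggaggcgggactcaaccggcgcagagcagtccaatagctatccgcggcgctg
Mcm6: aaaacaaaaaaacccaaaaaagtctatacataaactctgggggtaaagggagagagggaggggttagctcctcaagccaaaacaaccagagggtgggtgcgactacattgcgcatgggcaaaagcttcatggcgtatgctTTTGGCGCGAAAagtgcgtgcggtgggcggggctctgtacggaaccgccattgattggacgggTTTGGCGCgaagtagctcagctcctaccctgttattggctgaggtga

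The single-cell table held 38057 cells in 16 deposited clusters, with 8315 to 10026 cells, 57337626 to 69859331 unique molecular identifiers (UMIs) and a median of 4704.5 to 6196 UMIs per cell in a library. Of 37903 cell barcodes, 154 were in more than 1 library (13 to 36 for a pair of libraries), which touched 308 cells. By marker genes, clusters 0 and 3 were neutrophil-like, 6 granule-rich neutrophil-like, 1 and 5 monocyte/macrophage-like, 2 T cell-like, 4 B cell-like, 7 dendritic cell-like, 9 NK cell-like and 10 microglia-like. Cluster 8 was led by microglial markers, but its cells were shallow and none of these markers was among its 10 leading genes, so it was left unnamed. Cluster 11 was mixed, cluster 12 was led by granule-rich neutrophil and granulocyte precursor markers, and clusters 13 to 15 were left unnamed. Donor and host T cells were not told apart here.

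Levels of the cell cycle genes were given as counts per 1000000 UMIs (CPM), that is, the UMIs of the genes over all UMIs of the same cells. The authors formed the clusters from expression, these genes included, so levels between clusters are a description. Clusters 11 and 12 stood far above the others, and each of the 43 members had its highest level in one of them, 24 in cluster 11 and 19 in cluster 12. The 43 genes summed to 13790.1 CPM (young day 6), 11779 (middle-aged day 6), 11700.4 (young day 10) and 12891 CPM (middle-aged day 10) in cluster 11, which held 617 cells. Cluster 12 had 160 cells, 131 of them in the young day 10 library, where the sum was 13605 CPM. In the next tier, cluster 8 had 3315, 3922, 1651 and 1388 CPM in the same order of libraries, and cluster 10 had 2208, 3189, 1569.7 and 1311 CPM. Cluster 2 lay at 1347 to 1421 CPM and clusters 3, 6 and 9 between 885 and 1589 CPM, while clusters 0, 1 and 7 stayed between 408 and 749 CPM.

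**Figure D1:**
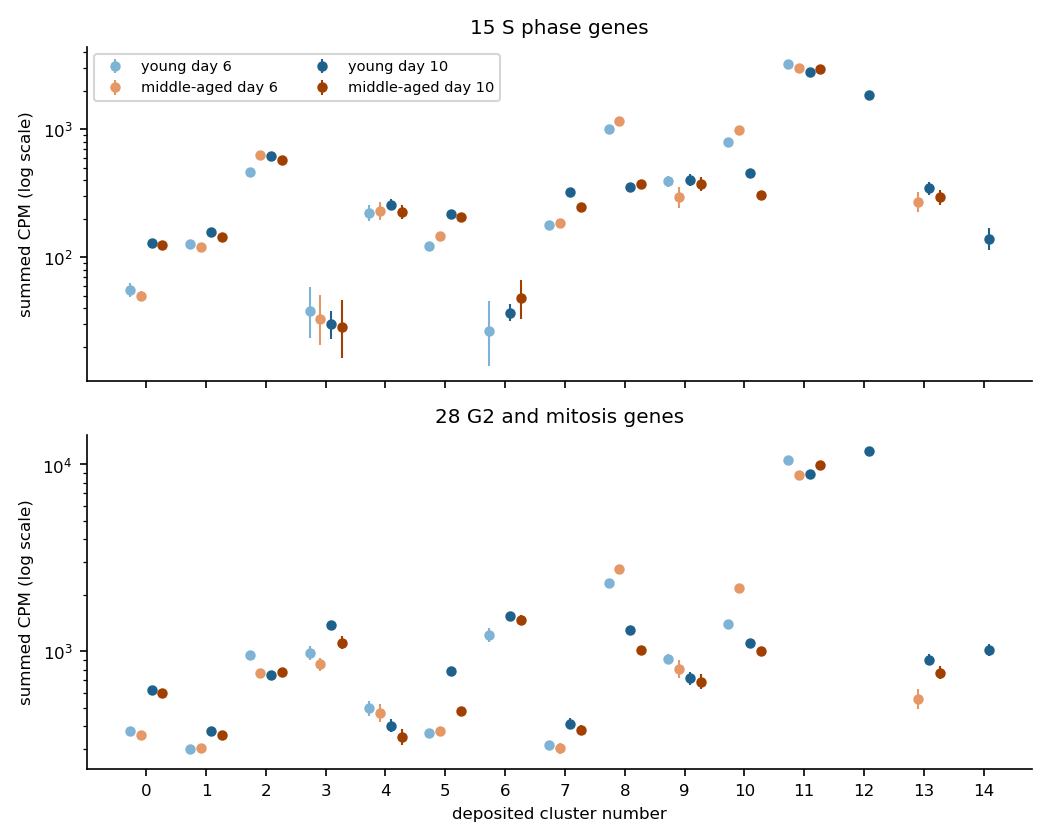
Summed CPM of the 15 S phase genes and of the 28 G2 and mitosis genes in each deposited cluster and library, on a log axis. Points are sums over the cells of a cluster in 1 library and bars their 95% Poisson intervals, and sums of fewer than 50 cells are left out. Clusters 11 and 12 stand highest for both gene sets, followed on day 6 by clusters 8 and 10, and clusters 3 and 6 stand high for the G2 and mitosis genes alone.

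S phase and G2 and mitosis genes did not make up the same share of the sum in every cluster. S phase genes held 42.1% of the list's UMIs in cluster 2, 30.9% in cluster 10, 26.7% in cluster 8, 23.6% in cluster 11 and 13.8% in cluster 12, over all libraries. In clusters 3 and 6 they held 2.57% and 2.38%. There the list was almost a single gene, since Hmgb2, a DNA-bending chromatin protein placed among the mitotic genes, stood at 1103 CPM in cluster 3 and 1377 CPM in cluster 6, beside list sums of 1230 and 1518 CPM. Both clusters thus had a high list level with hardly any S phase UMIs.

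**Figure D2:**
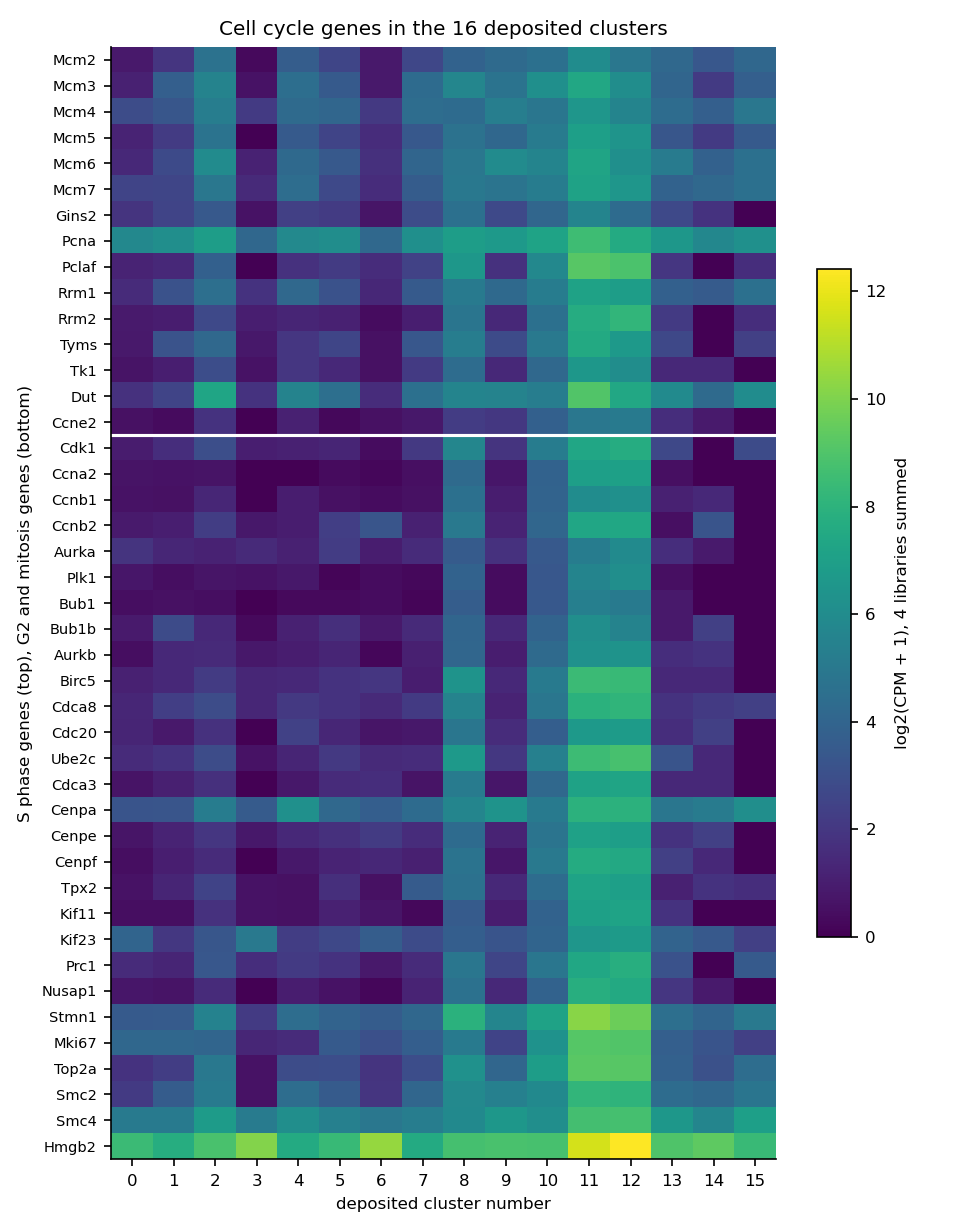
Level of each of the 43 genes in each deposited cluster, as log2(CPM + 1) with the 4 libraries summed, ordered from S phase to G2 and mitosis genes. Most G2 and mitosis genes are high in clusters 8, 10, 11 and 12 alone, whereas Pcna, Smc4 and Hmgb2 are seen in every cluster.

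The members differed in how far they spread beyond clusters 11 and 12. Hmgb2 had the most UMIs, 126306 in 25590 cells (67.2% of all cells), followed by Pcna, the sliding clamp, with 23147, Stmn1, a microtubule destabilizer, with 19962, Smc4, a condensin subunit, with 17612, and Dut, which removes dUTP, with 14573. Pcna was the broadest, with 83.6% of its UMIs outside clusters 11 and 12, and helicase genes followed with 81.7% for Mcm4, 76.9% for Mcm6, and 76.8% each for Mcm2 and Gins2. At the other end were the spindle protein Nusap1 with 18.7%, cyclin A2 (Ccna2) with 22.1%, the spindle kinesin Kif11 with 22.7%, the clamp-associated factor Pclaf with 26.5%, and Rrm2 and Birc5 with 26.9% each. Both phases had broad and narrow members, since the mitotic genes Smc4 (73.3%), Hmgb2 (67.3%), Kif23 (63.0%), Cenpa (62.8%) and Bub1b (59.9%) also had most of their UMIs outside clusters 11 and 12.

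The T cell-like cluster 2 showed the same split gene by gene. Dut stood at 157 CPM there against 529.5 CPM in cluster 11, and Mcm6 at 62.1 against 149 CPM. Rrm2, the subunit of ribonucleotide reductase made in S phase, stood at 5.7 against 202 CPM, and Ube2c, the ubiquitin-conjugating enzyme of anaphase, at 6.4 against 358 CPM. Cyclin A2 was at 0.6 CPM in cluster 2 against 126 CPM in cluster 11. Cells of cluster 2 therefore held UMIs of helicase and nucleotide genes with next to none of the mitotic cyclins.

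Clusters 8 and 10 were unlike cluster 2. In cluster 8, Stmn1 stood at 244.5 CPM, Ube2c at 100.1, Pclaf at 93.4 and Birc5, the survivin subunit of the chromosomal passenger complex, at 80.8 CPM. In cluster 10, Stmn1 was at 142 CPM, Top2a, which untangles sister chromatids, at 119.7, and Mki67, which coats mitotic chromosomes, at 79.6 CPM. Rrm2 was at 27.2 CPM in cluster 8 and 23.2 CPM in cluster 10. Genes of both phases were thus present in each.

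Across the 52 sums of a cluster in a library with at least 50 cells, the members least like the rest of the list were Hmgb2 (r = 0.53, on log2(CPM + 10)), Pcna (r = 0.65), Mcm4 (r = 0.67), Dut (r = 0.72) and Mcm6 (r = 0.74). The genes outside the list with the most similar pattern were Cdc45 (r = 0.95), Kif22, Ncapg, Ncaph, Dlgap5, Spc24, Cenph, Hmmr, Kif4 and Asf1b (the last at r = 0.91). The sums share libraries, depth and cluster borders, and each r is a description over these 52 points.

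How many cells were dividing was first read as the share of cells with 5 or more UMIs of the list. This share followed depth: in cluster 1, with a median of 9106 UMIs per cell, it was 31.6% to 51.8%, and after each cell was thinned to 2000 UMIs (shallower cells left out) it was 0.62% to 0.95%. Cluster 11 kept 89.9% to 93.1% after thinning and cluster 12 kept 100%. Cluster 2 went from 55.9% to 61.6% down to 12.2% to 16%, cluster 10 from 53.5%, 81.9%, 55.0% and 53.9% to 20.9%, 36.9%, 13.4% and 10.9%, and cluster 8 from 43.8%, 64.3%, 26.0% and 24.6% to 50.8%, 59.0%, 19.2% and 16.7%. Neutrophil-like cluster 0, with a median of 2269 UMIs, was taken as a background and still had 1.07% to 3.78%, with Hmgb2 at 355 of the list's 546 CPM there. Free RNA was not measured, so it was not told apart from the cells' own RNA. The shares that follow therefore rest on 21 narrow members, those at 10 CPM or less in every cluster other than 8, 10, 11 and 12. They were Rrm2, Tk1 and Ccne2 of S phase and 18 mitotic genes, and they were picked after the data were seen.

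With 5 or more UMIs of the narrow genes after thinning, a cell is called dividing below. In cluster 0 this held for 0 of 1030, 0 of 2438, 1 of 1164 and 0 of 1491 cells, which allows up to 0.291% for the first of these (3 counts of the total). In cluster 2 it held for at most 0.0532% of cells. Low shares in clusters 0 and 2 follow from the choice of genes with low levels there. Dividing cells made up 1.23% (young day 6), 1.26% (middle-aged day 6), 2.76% (young day 10) and 1.86% (middle-aged day 10) of the libraries, 92, 104, 244 and 162 cells. All but 1, 1, 4 and 3 of them were in clusters 8, 10, 11 and 12, which follows from the choice of the narrow genes.

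Where the dividing cells sat differed between the libraries. On day 6, clusters 8 and 10 together held 46.7% (95% interval 36.3 to 57.4%) of the dividing cells of young mice and 67.3% (57.4 to 76.2%) of those of middle-aged mice, and on day 10 they held 19.7% and 26.5%. Cluster 11 held 48.9%, 29.8%, 46.3% and 64.8%. Cluster 12 held 32.4% in young mice on day 10 and at most 6.79% in the other 3 libraries. Clusters 8 and 10 thus held the larger part of the dividing cells in the middle-aged day 6 library alone.

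Among cells that bore microglial markers, in whatever cluster, 7.20% (95% interval 5.04 to 9.92%, 34 of 472 cells) were dividing in young mice on day 6 and 18.4% (14.1 to 23.4%, 53 of 288) in middle-aged mice. On day 10 the shares were 7.59% (28 of 369) and 7.53% (33 of 438). The middle-aged day 6 library stood above the other 3, with an interval that did not overlap theirs. All of these dividing cells were in clusters 8 and 10, and the libraries divided their cells differently between the 2 clusters. Cluster 8 held 132 and cluster 10 held 411 cells of 2000 or more UMIs in young mice on day 6, against 234 and 214 cells in middle-aged mice, and cells of cluster 8 were dividing at a higher share in all 4 libraries. The part of this mix in the share was not tested, and within a cluster the age difference on day 6 was 18.9% against 20.9% in cluster 8 and 4.38% against 9.81% in cluster 10. Without cells that also held markers of another lineage, the shares were 7.51%, 19.2%, 7.54% and 7.49%. Monocyte/macrophage and dendritic cell markers counted as the same lineage as microglial markers here, so cells that also held those stayed in. The summed microglial markers that select these cells were lower in the middle-aged day 6 library, at 2408 against 3967 CPM in cluster 10 and 1439 against 2221 CPM in cluster 8, and the part of that in the share was not tested.

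**Figure D3:**
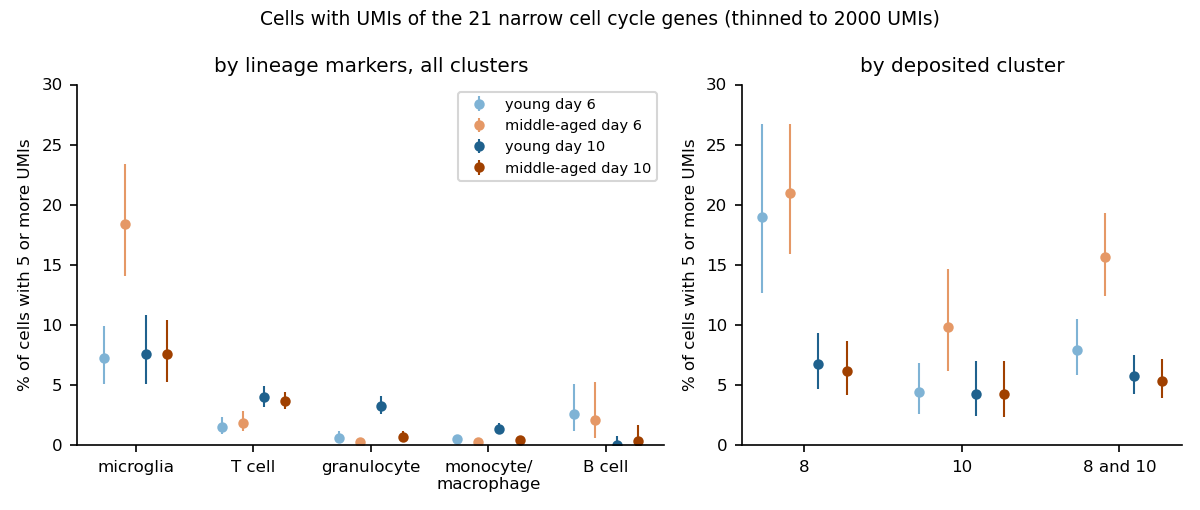
Share of cells with 5 or more UMIs of the 21 narrow cell cycle genes after thinning to 2000 UMIs, in percent, by the lineage whose markers the cell holds (left) and by deposited cluster (right). Points are single libraries and bars exact binomial 95% intervals. Microglial cells of the middle-aged day 6 library stand at 18.4% and those of the other libraries at 7.20% to 7.59%. The narrow genes were picked for low levels in clusters of other lineages, so the panels do not rank lineages or clusters.

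In clusters 8 and 10 the middle-aged day 6 library was again the highest, but in cluster 8 the young day 6 library lay close to it. In cluster 10, 4.38% (2.62 to 6.83%), 9.81% (6.18 to 14.6%), 4.27% and 4.24% of cells were dividing, in the order young and middle-aged day 6, then young and middle-aged day 10. In cluster 8 the values were 18.9%, 20.9%, 6.73% and 6.13%, with both day 6 libraries above both day 10 libraries, and in both clusters together 7.92% (5.79 to 10.5%), 15.6% (12.4 to 19.3%), 5.71% and 5.35%. Cluster 8 thus differed by day more than by age, and cluster 10 by age on day 6. Without cells of 2 lineages the shares in cluster 10 were 4.76%, 8.46%, 0.758% and 2.67%. Of the dividing cells, 121 of 136 in cluster 8 and 68 of 68 in cluster 10 held a microglial marker UMI, against 840 of 1193 and 1234 of 1238 of the other cells.

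For other lineages the shares were small, which follows in part from the choice of the narrow genes. These genes were picked for low levels in the T cell-like, B cell-like, monocyte/macrophage-like and neutrophil-like clusters. No such limit was set in the clusters led by microglial markers, so these shares do not rank the lineages. T cell-marked cells were dividing at 1.5%, 1.87%, 4.00% and 3.65%, higher on day 10 at both ages. Without cells that held markers of another lineage the T cell shares were 1.85%, 1.99%, 1.92% and 1.89%, near each other on both days. That filter kept only 378 of 1329, 351 of 1176, 626 of 2077 and 1058 of 2631 T cell-marked cells. Of the dividing ones it kept 7 of 20, 7 of 22, 12 of 83 and 20 of 96. Why the difference by day was absent among the cells kept was not tested. Granulocyte-marked cells were dividing at 0.56%, 0.24%, 3.27% and 0.66%, and 79 of the 82 cells of the young day 10 library sat in cluster 12. Monocyte/macrophage-marked cells were at 0.47%, 0.25%, 1.33% and 0.45%. B cell-marked cells were at 2.61%, 2.07%, 0% (0 of 470, which allows up to 0.638%) and 0.30%.

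In the microglia-like cluster 10 on day 6, nearly every member had a higher level in middle-aged than in young mice. The list summed to 2208 CPM in 432 young cells and 3189 CPM in 216 middle-aged cells, a log2 ratio of middle-aged to young of 0.53 (95% interval 0.48 to 0.58). Of the 37 members with 100 or more UMIs in both libraries together, 36 were higher, 20 were past 1.5-fold higher and 0 were past 1.5-fold lower. Over all 6668 genes with that many UMIs, 5.56% were past 1.5-fold higher and 6.78% past 1.5-fold lower, and the median log2 ratio was -0.04, against 0.62 for the members. The other 6 members, Ccnb2, Aurka, Plk1, Bub1, Bub1b and Kif11, had too few UMIs and were each higher too, cyclin B2 (Ccnb2) from 6.69 to 29.0 CPM.

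Mitotic genes accounted for 14 of the 20, and their sum had a log2 ratio of 0.64 (0.58 to 0.70) against 0.31 (0.23 to 0.39) for S phase genes. Cyclin B1 (Ccnb1), the partner of Cdk1 at mitotic entry, stood at 11.6, 28.5, 13.4 and 8.65 CPM in young day 6, middle-aged day 6, young day 10 and middle-aged day 10. Its log2 ratio of 1.29 (0.71 to 1.90) on day 6 was the highest of the 37. The kinetochore motor Cenpe stood at 22.7, 52.0, 21.1 and 18.6 CPM (log2 ratio 1.20 on day 6) and Cdca3, an adaptor for ubiquitination at mitotic entry, at 15.1, 30.6, 14.5 and 12.1 CPM (1.02). In each of these the middle-aged day 6 library was above the other 3, which lay close together.

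The better counted mitotic genes had smaller age ratios on day 6, and their young day 6 level lay above both day 10 levels. Hmgb2 stood at 456, 664, 358 and 371 CPM (0.54 on day 6, 0.44 to 0.64), Stmn1 at 148, 248, 111 and 90.0 CPM (0.75, 0.58 to 0.93), and Top2a at 142, 202, 86.8 and 70.5 CPM (0.51, 0.32 to 0.69). Mki67 stood at 82.9, 128, 59.2 and 62.8 CPM (0.63, 0.39 to 0.86), and Cdk1, the mitotic kinase itself, at 39.3, 62.1, 29.6 and 22.0 CPM (0.66, 0.31 to 1.01). All 3 members of the chromosomal passenger complex, which corrects attachments of the spindle, were past 1.5-fold, with log2 ratios of 0.62 for Aurkb, 0.98 for Birc5 and 0.71 for Cdca8.

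S phase genes divided by role. The 7 helicase genes lay between -0.30 and 0.35 and none was past 1.5-fold. Mcm2 was the only member with a lower level, at 38.1 and 31.1 CPM on day 6 (log2 ratio -0.30, -0.73 to 0.13), Mcm7 was at 0.01 and Mcm3 at 0.04, and each of these intervals included 0. Of the 5 genes of nucleotide supply, 4 were past 1.5-fold: Rrm2 at 28.2 and 47.8 CPM (0.76, 0.36 to 1.17), Tk1 (0.68), Tyms (0.63) and Dut (0.59), with Rrm1 at 0.44. Pclaf, at 0.73, and cyclin E2 (Ccne2), at 0.67, were past it as well, while Pcna stood at 179 and 214 CPM (0.25, 0.08 to 0.43).

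**Figure D4:**
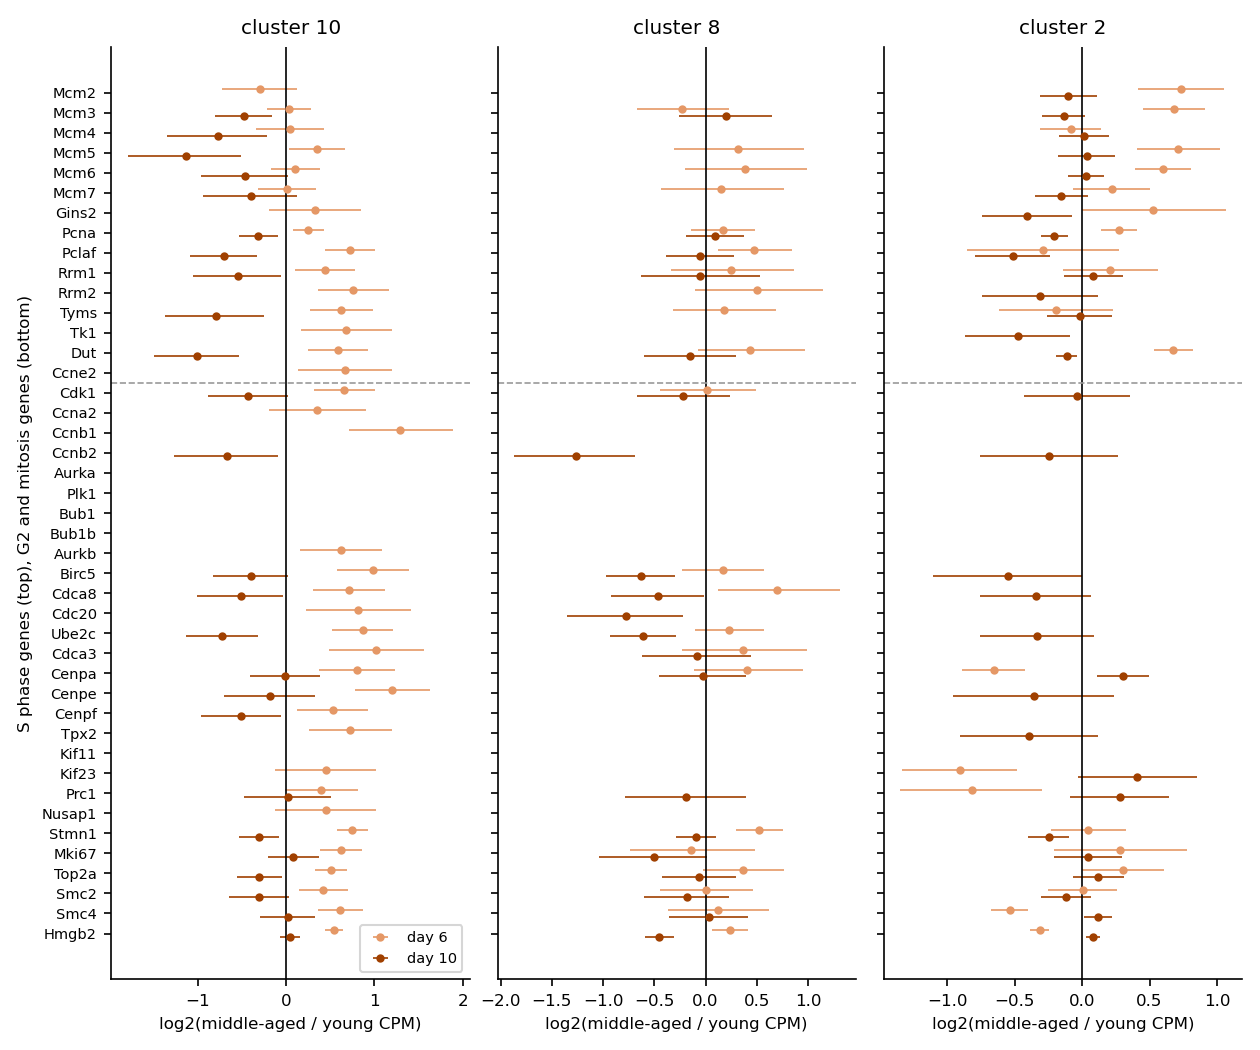
Log2 ratio of middle-aged to young CPM for each member with 100 or more UMIs in both libraries together, in clusters 10, 8 and 2, with S phase genes above the dashed line. Light points are day 6, dark points day 10 and bars exact 95% intervals. In cluster 10, 36 of 37 members lie right of 0 on day 6. In cluster 2 on day 6, the helicase genes Mcm2, Mcm3, Mcm5 and Mcm6 lie right of 0, but Mcm4 lies left of it. Kif23, Prc1, Cenpa, Smc4 and Hmgb2 lie left of 0 there as well.

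Other values of cluster 10 moved with this difference on day 6. Median depth was 6931 UMIs in young and 10000.0 in middle-aged cells, granule-rich neutrophil markers summed to 493 and 70.5 CPM, and monocyte/macrophage markers to 984 and 1414 CPM. The 10 cells with the most list UMIs held 23.8% and 27.0% of them. With the narrow genes alone the log2 ratio was 0.80, and without cells of 2 lineages it was 0.39. The part of depth and of other cells in the result was not tested.

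On day 10 the order of the ages in cluster 10 was the opposite one, with 1569.7 CPM for young mice against 1311 CPM for middle-aged mice (log2 ratio -0.26, -0.32 to -0.20). Of 25 members with enough UMIs, 7 were past 1.5-fold lower and 0 past it higher, where 1.94% and 1.74% of all 6712 genes were, and the median was -0.43. The S phase sum (-0.57) was further below 0 than the G2 and mitosis sum (-0.15). Mcm5 had the lowest ratio, from 21.1 to 9.58 CPM (-1.14, -1.79 to -0.51), then Dut (-1.0) and Tyms (-0.79). Mki67 (0.08), Hmgb2 (0.05) and Prc1 (0.02), which cross-links the spindle midzone, were the highest. Without cells of 2 lineages the ratio of the list was -0.08, and with the narrow genes alone it was -0.45. By phase, the S phase sum was at -0.47 without cells of 2 lineages and the G2 and mitosis sum at 0.08.

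From day 6 to day 10 the list was lower in cluster 10 at both ages, and by more in middle-aged mice. The log2 ratio of day 10 to day 6 was -0.49 (-0.54 to -0.44) in young and -1.28 (-1.34 to -1.23) in middle-aged mice. In young mice 13 of 32 members were past 1.5-fold lower, and 0 past it higher, where 19.4% and 8.21% of all genes were, and the median was -0.51, against -0.18 for all genes. In middle-aged mice 30 of 31 were past it lower and 0 higher, where 13.9% and 5.15% of all genes were, and the median was -1.47, against -0.12. Both comparisons share their day 6 library with the comparison of ages, so they are not independent of it.

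S phase genes had the larger differences by day at both ages, -0.80 against -0.34 for G2 and mitosis genes in young mice and -1.69 against -1.13 in middle-aged mice. In middle-aged mice Mcm5 went from 65.1 to 9.58 CPM (-2.76, -3.37 to -2.20), Rrm2 from 47.8 to 8.04 CPM (-2.57) and Tyms, which makes thymidylate, from 57.5 to 13.3 CPM (-2.11). Top2a (-1.52), Cdk1 (-1.50), and Stmn1 (-1.47) were between, and Hmgb2 (-0.84) and Cenpa, the histone of the centromere, (-0.43, -0.83 to -0.02) were the nearest to 0 with Prc1 (-0.93). In young mice Mcm2 (-1.78), Mcm6 (-1.52) and Mcm7 (-1.35) were lowest, while Cenpa (0.39) and Birc5 (0.33) were highest and Ube2c stood at 41.3 against 37.2 CPM (0.15). Normalization by TMM moved all genes up by 0.17 in young and 0.14 in middle-aged mice, which made the list ratios -0.32 and -1.14. Without cells of 2 lineages the young ratio was -1.04.

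In cluster 8, day separated the libraries more than age did. In young mice the list stood at 3315 CPM in 249 cells on day 6 and 1651 CPM in 668 cells on day 10 (log2 ratio -1.01, -1.08 to -0.93), and in middle-aged mice at 3922 CPM in 364 cells and 1388 CPM in 776 cells (-1.50, -1.56 to -1.44). Of 17 members with enough UMIs in young mice 15 were past 1.5-fold lower and 0 higher, beside 30.1% and 10.6% of all genes, and of 25 in middle-aged mice all 25 were past it lower, beside 26.9% lower and 6.14% higher. All genes had a median of -0.28 at both ages, and TMM moved them up by 0.39 and 0.30, which made the list ratios -0.62 and -1.20. Microglial markers were lower on day 10 as well, 648 against 2221 CPM in young and 906 against 1439 CPM in middle-aged mice, and monocyte/macrophage markers were higher, 1792 against 742 and 1511 against 844 CPM. The part of these markers in the day difference was not tested.

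Rrm2 showed the size of the difference in cluster 8, at 47.6, 67.6, 13.6 and 14.4 CPM, with a log2 ratio by day of -1.81 in young mice, from under 100 UMIs, and -2.23 (-2.83 to -1.66) in middle-aged mice. Mcm6 stood at 53.8, 69.9, 16.8 and 15.6 CPM, Top2a at 118, 152, 53.9 and 51.6 CPM, and Stmn1 at 327, 470.4, 181 and 169 CPM. For each of these genes both day 6 libraries lay above both day 10 libraries. Mcm3 was lowest by day among well counted genes of young mice (-1.75), and Ccnb2 (-0.31) and Cdca8 (-0.33) were the nearest to 0 there. In middle-aged mice Smc4 (-0.90) was.

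By age, the list ratio in cluster 8 was 0.24 (0.17 to 0.32) on day 6 and -0.25 (-0.32 to -0.19) on day 10. The phases differed in this: the S phase sum was at 0.21 and 0.08, and the G2 and mitosis sum at 0.25 and -0.35. On day 6, 1 of 22 members was past 1.5-fold, Cdca8 (0.70, 0.12 to 1.31), beside 8.21% of all genes past 1.5-fold higher and 4.27% past it lower. Stmn1 (0.52, 0.30 to 0.76) and Rrm2 (0.51) followed, and Mcm3 (-0.23) was lowest. On day 10, 4 of 20 were past 1.5-fold lower and 0 higher, beside 2.26% and 2.21% of all genes. Ccnb2 went from 34.7 to 14.4 CPM (-1.27, -1.87 to -0.69), Cdc20, which activates the anaphase ligase, was at -0.78, Birc5 at -0.63 and Ube2c, its partner enzyme, at 82.6 and 54.0 CPM. When each cell weighed the same, the day 10 ratio of the list was -0.00 and that of day 6 was 0.46.

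T cell-like cluster 2 had nearly the same list level in the 4 libraries, 1421, 1393, 1369.9 and 1347 CPM, but the 2 phases differed by age on day 6. For young mice the S phase genes summed to 466 CPM and for middle-aged mice to 625 CPM (log2 ratio 0.42, 0.36 to 0.49), and G2 and mitosis genes to 955 and 768 CPM (-0.31, -0.37 to -0.26). The directions held without mitochondrial and ribosomal protein genes (0.43 and -0.31), with TMM (0.50 and -0.23) and without cells of 2 lineages (0.43 and -0.34). S phase genes held 32.8% of the list's UMIs in the young day 6 library and 44.9%, 45.2% and 42.4% in the middle-aged day 6, young day 10 and middle-aged day 10 libraries. The young day 6 library was thus the one apart.

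Some of the helicase genes led the S phase side in cluster 2, but the family did not move as a whole. Mcm2 stood at 19.1, 31.6, 25.6 and 23.8 CPM (log2 ratio 0.73 on day 6, 0.41 to 1.05), Mcm5 at 20.9, 34.2, 24.6 and 25.2 CPM (0.71) and Mcm3 at 36.7, 58.7, 47.3 and 43 CPM (0.68). Dut stood at 92.3, 147, 181 and 168 CPM and Mcm6 at 45.0, 68.2, 64.1 and 65.4 CPM. These 5 were the members past 1.5-fold higher among 21 with enough UMIs, and 3 were past 1.5-fold lower, beside 3.88% higher and 4.49% lower of all 7646 genes. Pcna, at 119 and 144 CPM, had a log2 ratio of 0.27, and Mki67, at 9.46 and 11.5 CPM, had one of 0.28 (-0.21 to 0.77). Top2a was at 0.30 and Stmn1 at 0.05. The helicase genes Mcm7 (27.5 CPM in young, 32.1 in middle-aged mice) and Gins2 (7.48 and 10.8 CPM) were higher on day 6, short of 1.5-fold. Among S phase genes with enough UMIs, Mcm4 (47.2 and 44.4 CPM), Tyms (15.0 and 13.1 CPM) and Pclaf (8.90 and 7.28 CPM) were lower in middle-aged mice.

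The 3 members past 1.5-fold lower in cluster 2 act at the spindle midzone and the centromere, and the mitotic cyclins had too few UMIs there to be counted. Kif23, a kinesin of cytokinesis, stood at 19.3, 10.3, 5.41 and 7.18 CPM (-0.90 on day 6, -1.34 to -0.48), Prc1 at 12.6, 7.14, 8.01 and 9.71 CPM (-0.82) and Cenpa at 55.9, 35.6, 27.7 and 34.2 CPM (-0.65). Hmgb2 stood at 567, 456, 410.4 and 435 CPM (-0.31) and Smc4 at 156, 107, 97.8 and 106 CPM. In all 5 the young day 6 library was the highest. On day 6, Cdk1 had 28 and 48 UMIs, Ccnb1 5 and 7 UMIs and Ccnb2 19 and 8 UMIs in young and middle-aged mice, all under the minimum.

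On day 10 no member of cluster 2 was past 1.5-fold by age among 30 with enough UMIs, beside 1.59% higher and 0.745% lower of all genes, and the list ratio was -0.02. Birc5 (-0.55), Pclaf (-0.52) and Tk1 (-0.48) were lowest and Kif23 (0.41) and Cenpa (0.30) highest, with Prc1 at 0.28. Mki67 (0.04), Top2a (0.12), Mcm2 (-0.10), Cdk1 (-0.04) and Hmgb2 (0.08) were near 0, with Pcna at -0.21, Stmn1 at -0.25 and Rrm2 at -0.31.

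Between days, young mice had 9 of 27 members past 1.5-fold higher on day 10 and 4 lower, beside 5.14% and 13.9% of all genes. Tk1, the thymidine kinase, went from 2.40 to 9.09 CPM (1.92, 1.19 to 2.75), Pclaf was at 1.02, Dut at 0.97, Mki67 at 0.93 and Stmn1 at 0.83, with Cdk1 at 0.94 and Rrm2 at 0.91, while Kif23 was at -1.84, Cenpa at -1.01 and Smc4 at -0.67. In middle-aged mice 3 of 26 were past 1.5-fold higher, beside 6.93% of all genes, and 0 lower, beside 8.03%. The 3 were Pclaf (0.79), Mki67 (0.69, 0.33 to 1.07) and Ube2c (0.60), with Kif23 (-0.53), Pcna (-0.45) and Mcm3 (-0.45) lowest. TMM moved all genes of the young comparison up by 0.21, and the list ratio of -0.05 then became 0.15.

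Cluster 11 was a mixture of cells that held markers of different lineages. A cell was given the lineage whose markers had the most UMIs. Among its cells with 5 or more list UMIs, 47.3%, 69.1%, 59.7% and 85.0% were T cell-marked, in the order young day 6, middle-aged day 6, young day 10 and middle-aged day 10 (of 91, 68, 243 and 200 cells). Mononuclear phagocyte-marked cells were 22.0%, 8.82%, 18.9% and 6.0%, granulocyte-marked 7.69%, 4.41%, 14.0% and 2.0%, basophil/mast-marked 7.69%, 7.35%, 5.76% and 4.50%, and B cell-marked 8.79%, 4.41%, 0% and 0.50%. The basophil/mast-marked cells, 5 to 14 in a library, had list levels of 1189, 3879, 7524 and 1475 CPM, below the cluster as a whole. At both days the T cell-marked share was larger in middle-aged mice, with intervals of 36.7 to 58.0% against 56.7 to 79.8% on day 6 and 53.2 to 65.9% against 79.3 to 89.6% on day 10. Of the 294 cells of cluster 11 called dividing, 237 held 2 or more marker UMIs of a second lineage, at a median depth of 14026 UMIs per cell.

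**Figure D5:**
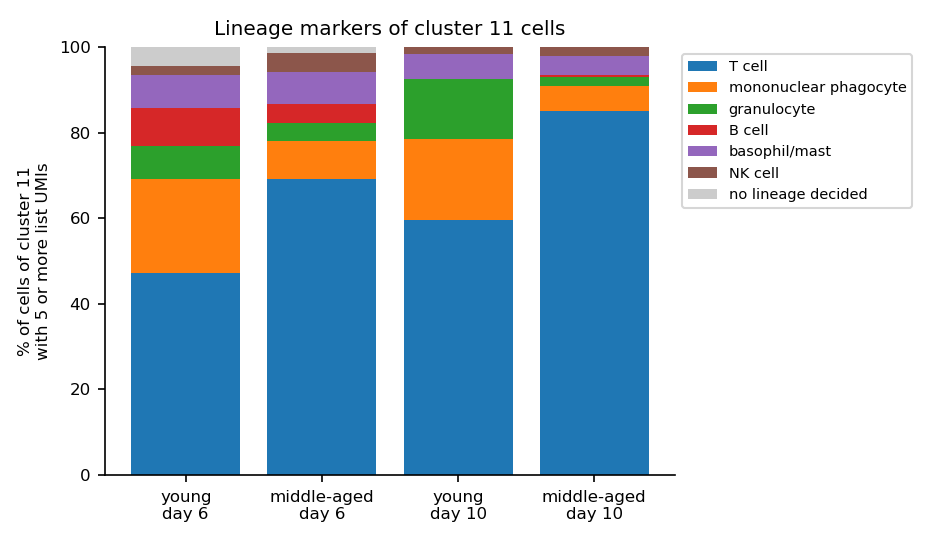
Lineage markers held by the cells of cluster 11 with 5 or more list UMIs, in percent of these cells, for each of the 4 libraries. T cell-marked cells are 47.3% and 69.1% on day 6 and 59.7% and 85.0% on day 10, in young and middle-aged mice.

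Because the mixture differed between libraries, levels over the whole of cluster 11 compare different cells. The list ratio by age was -0.23 (-0.26 to -0.19) on day 6 and 0.14 (0.12 to 0.16) on day 10, and without cells of 2 lineages the day 6 value was -0.49. That filter kept only 32 of 97 young and 15 of 71 middle-aged cells of day 6. With TMM, which moved all genes up by 0.10 and 0.08, the values were -0.13 and 0.22. Of 40 members with enough UMIs on day 6, 3 were past 1.5-fold lower, beside 10.2% of all genes, namely Bub1b (-1.04), a spindle checkpoint kinase, Cdc20 (-0.74) and Kif11 (-0.62), and none was past it higher, beside 4.75%. Dut (0.17), Pcna (0.14) and Smc2 (0.13) were highest, and Rrm2 (-0.42), Hmgb2 (-0.37), Mki67 (-0.35) and Cdk1 (-0.35) lay below 0. On day 10 none of 43 was past it in either direction, beside 2.9% higher and 7.54% lower, with Nusap1 (0.51), Cenpf (0.47) and Ube2c (0.41) highest and Aurkb (-0.39), Mcm5 (-0.21) and Rrm2 (-0.11) lowest. Mki67 stood at 597, 470.3, 504 and 657 CPM, Top2a at 648, 614, 542 and 654 CPM, and Pcna at 400, 442, 367 and 363 CPM in the 4 libraries.

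By day in cluster 11, where TMM moved all genes up by 0.18 in young and 0.16 in middle-aged mice, 1 member was past 1.5-fold lower in young mice (Ccnb1, -0.73) and 0 higher, beside 12.1% and 4.82%, and 4 past it higher and 0 lower in middle-aged mice, beside 5.29% and 10.7%. The 4 were Cdc20 (0.71), Nusap1 (0.70), Prc1 (0.65) and Ccne2 (0.61). Mcm2 (-0.52 and -0.47) and Mcm5 (-0.49 and -0.34) were among the 3 lowest members at both ages, and Mki67 was at -0.25 in young and 0.48 in middle-aged mice. Top2a (-0.26 and 0.09), Hmgb2 (-0.45 and -0.04), Stmn1 (0.10 and 0.32), Pcna (-0.13 and -0.28), Cdk1 (-0.02 and 0.38) and Rrm2 (-0.23 and 0.08) lay between.

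The T cell-marked cells of cluster 11 with 5 or more list UMIs numbered 43, 47, 145 and 170 in the 4 libraries. They were thus kept for holding UMIs of the same list whose level is given here. Of all cells of cluster 11, 91 of 97, 68 of 71, 243 of 246 and 200 of 203 met this minimum. Their list level was 13613, 11760, 13209 and 13408 CPM, with an age ratio of -0.21 (-0.26 to -0.17) on day 6 and 0.02 (-0.00 to 0.04) on day 10. On day 6, 1 of 33 members was past 1.5-fold lower, Prc1 (-0.66, -1.16 to -0.16), and none higher, beside 9.46% and 6.67% of all genes. On day 10, 0 of 43 were past it either way, beside 1.53% and 1.55%, and the range ran from Aurkb (-0.52, -0.83 to -0.22) to Cdc20 (0.37) and Mcm2 (0.37). Among cells chosen in this way, the list level was thus about the same at both ages on day 10, 13209 and 13408 CPM, but not on day 6.

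By day, the S phase sum of these T cell-marked cells was lower on day 10 at both ages, and the G2 and mitosis sum was higher in middle-aged mice. In middle-aged mice the S phase sum had a log2 ratio of -0.19 (-0.26 to -0.12) and the G2 and mitosis sum one of 0.32 (0.28 to 0.37), and in young mice the values were -0.24 (-0.31 to -0.17) and 0.02. The young G2 and mitosis sum was mostly Hmgb2, which went from 4135 to 2941 CPM, and Ccnb1 and Kif23 were lower too. Each of the other G2 and mitosis members was higher on day 10 in young mice, with no minimum of UMIs, Stmn1 from 980 to 1334 CPM. In middle-aged mice 11 of 41 members were past 1.5-fold higher and 1 lower on day 10, beside 7.48% and 12.1% of all genes. Cenpf, a kinetochore protein, stood at 125, 108, 231 and 243 CPM (1.17, 0.82 to 1.54), Bub1b at 63.4, 25.2, 76.7 and 65.9 CPM (1.39) and Cdc20 at 89.1, 51.8, 94.1 and 121 CPM (1.23), against Mcm2 at 83.9, 90.3, 45.9 and 59.5 CPM (-0.60, -1.04 to -0.15). In young mice Cenpf was at 0.88, Nusap1 at 0.66 and Cdca8 at 0.57, and Mcm5 at -0.90, Mcm2 at -0.87 and Mcm7 at -0.59, with 2 of 41 past 1.5-fold higher and 3 lower, beside 7.22% and 15.0%. Mcm2 and Mcm5 (-0.39 in middle-aged mice) were thus lower and Cenpf and Nusap1 (0.86 in middle-aged mice) higher on day 10 at both ages.

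Cluster 12 held dividing granulocyte-marked cells, with granulocyte markers the leading ones in each of its 160 cells. It held 6, 4, 131 and 19 cells, so the day 6 values rest on very few cells and are given without a comparison (11920.1 and 7718 CPM for the list). On day 10 the list stood at 13605 and 13845 CPM (log2 ratio 0.03, -0.02 to 0.07). Hmgb2 reached 5443 CPM over all libraries, its highest level in any cluster, and Rrm2 285 CPM, while Pcna was at 192 and Dut at 171 CPM, below their levels in cluster 11. Of 39 members with enough UMIs on day 10, 3 were past 1.5-fold lower in middle-aged mice and 0 higher, beside 12.2% and 2.98% of all genes. These were Ccnb2 (-0.82), Mcm4 (-0.81, -2.06 to 0.22) and Cdc20 (-0.78), and Mki67 (0.57, 0.35 to 0.79), Prc1 (0.47) and Bub1b (0.45) were highest. Top2a (0.45) and Pcna (0.44) were above 0, Stmn1 (0.11) and Rrm2 (-0.01) near it, and Hmgb2 (-0.16), Cdk1 (-0.17) and Ccnb1 (-0.41) below it.

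Monocyte/macrophage-like cluster 5 had a list level of 491, 522, 1002 and 689 CPM. Its age ratio was 0.09 (0.02 to 0.15) on day 6 and -0.54 (-0.61 to -0.47) on day 10, where the G2 and mitosis sum was at -0.70 and the S phase sum at -0.08. Hmgb2 made most of this, at 582 and 298 CPM on day 10 (-0.97, -1.07 to -0.87), with Stmn1 at 29.1 and 18.1 CPM (-0.69). These were the 2 of 11 members past 1.5-fold lower, beside 3.95% of all genes, and none was past it higher, beside 3.34%. On day 6, 3 of 11 were past it higher, Mki67 (1.02, 0.41 to 1.64), Dut (0.73) and Mcm3 (0.70), and Cenpa (-0.66) past it lower, beside 4.3% and 5.63%. From day 6 to day 10, 6 of 10 members were past it higher in young and 8 of 11 in middle-aged mice, beside 23.3% and 25.1% of all genes, and none was past it lower, beside 13.4% and 11.5%. Dut led in both (2.35 and 1.57). At most 0.244% of the cells of cluster 5 were dividing in a library, where the narrow genes were picked for low levels in this cluster.

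Genes of the same pathway outside the list were grouped into 23 other S phase genes, 24 other G2 and mitosis genes, 6 G1 cyclins and kinases and 11 inhibitors and pocket proteins. In cluster 10 on day 6, 2 of 19 other S phase genes with enough UMIs were past 1.5-fold higher in middle-aged mice (E2f8 at 0.85 and Rad51ap1 at 0.71), with 16 of 19 above 0, and 4 of 12 other G2 and mitosis genes, among them the kinetochore gene Ndc80 (1.01) and the spindle gene Tacc3 (0.97), with 11 of 12 above 0. None of 6 G1 cyclins and kinases was past it either way (median 0.14), and of 7 inhibitors 1 was past it lower, Btg2 (-0.83), with a median of 0.03, beside 5.56% higher and 6.78% lower of all genes. From day 6 to day 10 in middle-aged mice, 11 of 11 other S phase genes, 10 of 10 other G2 and mitosis genes and 6 of 6 G1 genes were past 1.5-fold lower, beside 13.9% of all genes. Cyclin D2 (Ccnd2) went from 71.3 to 15.8 CPM (-2.18) and Rad51ap1, a recombination factor, from 39.5 to 8.3 CPM (-2.24). The inhibitors had a median of 0.00, with Rb1 (0.60) past 1.5-fold higher, beside 5.15% of all genes, and 3 past it lower, Rbl1 (-0.96) the lowest.

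In cluster 2 on day 6, the median over 15 other S phase genes was 0.30, with 2 past 1.5-fold higher in middle-aged mice, beside 3.88% of all genes. These were E2f1, a transcription factor of S phase genes, at 4.7 and 11.1 CPM (1.25, 0.64 to 1.88), and Dtl (0.69). The 6 other G2 and mitosis genes had a median of -0.03, with Ndc80 (-0.79) past it lower, beside 4.49% of all genes. Cdk6, the G1 kinase, stood at 93.2 and 174 CPM (0.90), and the inhibitor Cdkn1a (p21) at 69.3 and 125 CPM (0.85) with Cdkn1b (p27) at -0.59. In clusters 11 and 12, the highest of the other S phase genes were Gmnn (186 and 152 CPM), Slbp (181 and 170.2 CPM) and Rfc2 (119 and 63.7 CPM), and of the other mitotic genes Cks2 (319 and 620.0 CPM), Cks1b (282 and 115 CPM) and Hmmr. Cyclin D3 (Ccnd3, 203 and 319 CPM) led the G1 genes, with Ccnd2 and Cdk4, and Btg2, Btg1 and Cdkn2d, at 185 and 308 CPM, led the inhibitors.

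Bulk microglia of naive mice gave a readout without EAE, with 79373420 and 76293436 counts in the young and the middle-aged library. The list stood at 433 and 448 CPM (log2 ratio 0.05, 0.03 to 0.07), the G2 and mitosis sum at 127 and 127 CPM, and the 21 narrow genes at 46.1 and 45.7 CPM (-0.02). In bulk, fewer cells of a type and less RNA per cell cannot be told apart. Of 41 members with enough counts, 13 were higher and 28 lower in middle-aged mice, with Rrm2 (0.65, 0.30 to 1.00) past 1.5-fold higher and Bub1 (-0.61, -1.08 to -0.15) past it lower, beside 4.82% and 9.59% of all genes. Mki67 stood at 11.7 and 9.57 CPM, Top2a at 9.15 and 8.93 CPM and Pcna at 102 and 125 CPM. The narrow genes were thus level between the ages in naive microglia, where the same genes had a log2 ratio of 0.80 in cluster 10 on day 6 of EAE, and the difference between these ratios has no test. Endothelial markers differed between the bulk libraries, at 331 and 108 CPM, and microglial markers did not by as much, at 16606 and 15735 CPM.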

How the data were processed

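Single-cell libraries were made with the 10x Genomics v3 chemistry. The authors aligned and counted the reads with Cell Ranger 3.1.0 on mm10, kept cells with at least 200 genes and at most 25000 reads, and clustered them with Seurat 4.0.4 at a resolution of 0.4. The deposited counts are whole UMIs per gene and cell with a cluster number. For bulk microglia the authors trimmed reads with fastp 0.20.0, aligned them with HISAT2 2.1.0 and deposited read counts per gene.

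UMIs were summed per cluster and library and divided by all UMIs of those cells (CPM, per 1000000 UMIs). Each age and day had 1 library, so no model was fitted, no p-value was computed and nothing was paired or blocked. Ratios carry exact conditional binomial intervals, sums exact Poisson intervals and shares exact Clopper-Pearson intervals, all at 95% and for counting error only. A gene was counted as past 1.5-fold among genes with 100 or more UMIs (bulk: counts) in both libraries together, beside the share of all such genes. A share of 0 allows up to 3 counts of the total. Cells were thinned once to 2000 UMIs, and shallower cells were left out. A cell was given the lineage whose markers had the most UMIs (at least 2), and a cell with 2 marker UMIs of a further lineage was taken as holding 2 lineages. Microglial, monocyte/macrophage and dendritic cell markers counted as 1 lineage for this, mononuclear phagocyte. No doublet caller was run, and the deposited cells were used as they are. The calculations were checked on simulated counts with known fold changes. Python 3.11.15, numpy 2.4.6, scipy 1.17.1, pandas 2.3.3 and matplotlib 3.10.9 were used, with R 4.3.3 and edgeR 4.0.16 for TMM factors alone.

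The 43 genes and the lists were chosen with earlier results of these data known. In the comparisons of clusters 2, 11 and 12, the 3 highest and 3 lowest members with enough UMIs were named along with Mki67, Top2a, Pcna, Mcm2, Cdk1, Ccnb1, Rrm2, Stmn1 and Hmgb2 where these had enough UMIs. By cluster, the 5 members with the most UMIs and the 5 broadest and 5 narrowest were named, then the 2 largest and 2 smallest and the 3 highest of each pathway list, and the 10 genes most similar in pattern, and other members were named by role. The narrow genes, the comparisons in clusters 5, 8 and 10, the shares over lineage-marked cells, the T cell-marked cells of cluster 11 and the GC-matched promoters were chosen after the data were seen. Plasmacytoid dendritic cell markers were counted with the mononuclear phagocyte lineage, also after the data were seen. Cluster 12 was not compared on day 6 or between days, since it held 6 and 4 cells on day 6.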

Additional observations from a re-analysis of the deposited data

Results flagged for a closer look

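In 4 of the 11 clusters checked, the age ratio of the list was on opposite sides of 0 on day 6 and day 10, with intervals that excluded 0 on both days. The difference between days was not tested, since each age and day had 1 library. In the microglia-like cluster 10 the log2 ratio of middle-aged to young CPM went from 0.53 to -0.26, a difference of -0.79. Cluster 8, led by microglial markers, went from 0.24 to -0.25, a difference of -0.49, and monocyte/macrophage-like cluster 5 from 0.09 to -0.54, a difference of -0.63. In cluster 8 the S phase sum was at 0.21 on day 6 and 0.08 on day 10. The G2 and mitosis sum there went from 0.25 to -0.35. The mixed cluster 11 differed the other way, from -0.23 to 0.14, a difference of 0.37, and the lineages it held differed between the libraries as well.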

How the results depend on the processing

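Values here are log2 ratios of the list CPM in clusters 2, 8, 10, 11 and 12, where d6 and d10 stand for middle-aged over young on that day, and young and middle-aged for day 10 over day 6. No paired analysis was possible because each group had 1 library, and for the same reason no replicate could be left out. The cause of a shift was not tested. Values are listed where they lay outside the interval of the main ratio. For cluster 12 and the day comparisons of clusters 2 and 11, they are listed only where the main interval excluded 0 and the sign was reversed. Not listed by this rule are the young day ratios of cluster 11 without cells of 2 lineages. They were -0.32 for S phase and -0.76 for G2 and mitosis genes, against -0.21 and -0.24 with all cells. These ratios rested on 32 cells on day 6 and 24 on day 10. With the total taken without mitochondrial and ribosomal protein genes, cluster 2 gave -0.062 (d10), 0.091 (young) and 0.055 (middle-aged), cluster 8 -1.42 (middle-aged), cluster 10 0.58 (d6) and -0.39 (young), and cluster 11 -0.18 (d6) and 0.18 (d10). With TMM factors, cluster 2 gave 0.053 (d6), -0.11 (d10) and 0.15 (young), cluster 8 0.32 (d6), -0.62 (young) and -1.20 (middle-aged), cluster 10 -0.32 (young) and -1.14 (middle-aged), and cluster 11 -0.13 (d6) and 0.22 (d10). Without Stmn1 and Hmgb2, cluster 2 gave 0.14 (d6), -0.063 (d10) and 0.14 (young), cluster 8 -1.13 (young), cluster 10 -0.37 (d10), -0.54 (young) and -1.42 (middle-aged), and cluster 11 -0.17 (d6) and 0.19 (d10). With each cell weighing the same, cluster 2 gave -0.094 (d6) and 0.043 (d10), cluster 8 0.46 (d6), -0.0016 (d10) and -1.41 (middle-aged), and cluster 10 0.72 (d6) and -1.40 (middle-aged). With the narrow genes alone, cluster 2 gave -0.24 (d10), 0.70 (young) and 0.45 (middle-aged), cluster 8 -0.46 (d10), -0.90 (young) and -1.63 (middle-aged), cluster 10 0.80 (d6), -0.45 (d10), -0.21 (young) and -1.46 (middle-aged), and cluster 11 -0.28 (d6) and 0.20 (d10). Without cells of 2 lineages, cluster 2 gave 0.12 (d10), cluster 8 0.34 (d6) and -1.63 (middle-aged), cluster 10 0.39 (d6), -0.084 (d10), -1.04 (young) and -1.52 (middle-aged), and cluster 11 -0.49 (d6), 0.12 (d10) and -0.054 (middle-aged). The direction of the list ratio in clusters 8 and 10 was the same under all of these settings, though the cluster 8 d10 value of -0.0016 was near 0. For G2 and mitosis genes alone, the cluster 10 d10 ratio was -0.15 with all cells and 0.08 without cells of 2 lineages. The sign of the list ratio in cluster 2 was not the same, nor was that of the middle-aged ratio in cluster 11, which was above 0 with all cells. Without cells of 2 lineages, that cluster 11 ratio rested on 15 cells on day 6 and 40 on day 10. Cells with 1000 or more UMIs alone gave like values in 20 of 20 results. In cluster 12, too few cells remained without those of 2 lineages for a value.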
